A study of Mus musculus with 2 samples.

Results

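The barcodes described here are those in which more than 10% of UMIs (unique molecular identifiers, 1 per captured RNA molecule) came from the 13 protein-coding genes of the mitochondrial genome, among barcodes with at least 500 UMIs. They numbered 343 of 3070 barcodes in the series, of which 316 of 2451 were in the Met-1 transplant library and 27 of 619 in the PyMT tumour library. The barcodes were chosen by their mitochondrial and total UMIs, so both are given as a description and support nothing else.

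Both libraries held cells isolated from mouse breast tumours and gated on EGFP with tdTomato-positive cells left out. The host mice of both were C57BL/6 inAd-Chaser-mTmG animals, which carry Adiponectin-rtTA, TRE-Cre and the Rosa26R mT/mG reporter: under doxycycline, the Adiponectin promoter drives a switch from tdTomato to EGFP in adipocytes, and cells that descend from them keep EGFP. The Met-1 transplant was a tumour of an implanted mouse mammary carcinoma line. The PyMT tumour arose in mice crossed to a line with the polyoma middle T oncogene. The sample label names the implanted line Met-1, while the design text of the series names EO771, and the label is followed here. With 1 library in each group, no test was possible, and the intervals given are exact 95% intervals that cover counting error alone.

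Mitochondrial transcripts are made and kept inside the organelle, whereas messenger RNA of nuclear genes is exported to the cytoplasm. Some long non-coding RNAs, such as Malat1 of nuclear speckles and Xist, which coats the inactive X chromosome, stay in the nucleus. A high mitochondrial share is widely used in droplet sequencing as a mark of cells with a damaged membrane, and it also varies between cell types with their content of mitochondria. The content of the remaining RNA can be described separately, since mitochondrial UMIs can be taken out of both the count and the total. Every level below is therefore in CPM, a gene's counts per 1000000 UMIs outside the mitochondrial genes, unless it is given in UMIs per barcode.

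In the Met-1 transplant, 12.9% of barcodes were above the limit (interval 11.6 to 14.3%), and in the PyMT tumour 4.36% (2.89 to 6.28%). They held 2.95% of all UMIs and 18.6% of mitochondrial UMIs of the Met-1 transplant library, and 1.14% and 15.5% of those of the PyMT tumour library. Within the Met-1 transplant, 122 barcodes lay between 10% and 15%, 72 between 15% and 20%, 59 between 20% and 30%, 28 between 30% and 50%, and 35 above 50%. The split was different among PyMT barcodes, with 4, 3, 0, 5 and 15 barcodes in the same bands. At the limit itself, 30 Met-1 barcodes lay between 10% and 11%, with a median of 1821 UMIs outside the mitochondrial genes, and 29 lay between 9% and 10%, with a median of 2424. Scrublet, a doublet caller, marked 0 of the 316 and 0 of the 27 barcodes above the limit, which allows shares of up to 0.949% and 11.1% (3 counts of the total, as for every count of 0 given here), and 23 and 1 of those at or under it.

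The barcodes above the limit were shallow outside the mitochondrial genes in both libraries, and they held more mitochondrial UMIs at the median. In the Met-1 transplant they had a median of 1002 UMIs outside the mitochondrial genes (quartiles 594 and 1808), against 7571 (3835 and 11942) in the 2135 barcodes at or under the limit. Their median of mitochondrial UMIs was 280, against 191. Along the bands from 2% to 5%, 5% to 10%, 10% to 15%, 15% to 20% and 20% to 30%, the median of mitochondrial UMIs was 243, 266, 238, 222 and 263, while the median of other UMIs was 7978, 3638, 1734, 1068 and 859. Barcodes above 50% differed from this pattern, with a median of 483 mitochondrial and 203 other UMIs. PyMT barcodes had a median of 522 UMIs outside the mitochondrial genes above the limit, against 3398 at or under it, and of 630 mitochondrial UMIs, against 59.

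**Figure D1:**
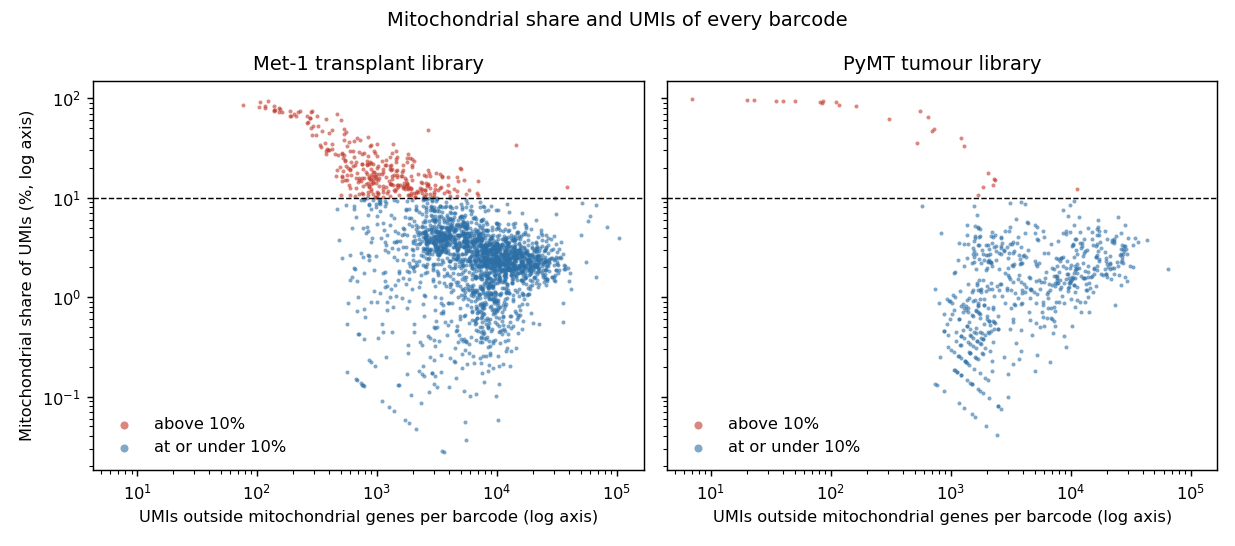
Mitochondrial share of UMIs (log axis, %) against UMIs outside mitochondrial genes (log axis) for every barcode with a mitochondrial UMI, above the 10% limit (red) and at or under it (blue), in the Met-1 transplant (left) and the PyMT tumour (right). The dashed line is the limit, and the red points lie mostly to the left, with medians of 1002 and 522 UMIs.

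The 13 mitochondrial genes contributed in similar proportions on both sides of the limit. Their leading members encode subunits of cytochrome c oxidase (mt-Co1, mt-Co2, mt-Co3) and of ATP synthase (mt-Atp6). In Met-1 barcodes above the limit, mt-Co3 made up 19.3% of mitochondrial UMIs, against 17.3% at or under it. The share of mt-Atp6 was 18.3% against 17.4%, and that of mt-Co1 17.1% against 20.6%. In the PyMT tumour mt-Atp6 led, with 28.5% above the limit and 26.3% at or under it, and mt-Co1 was at 12.6% against 18.0%. Shares of mt-Nd1, a subunit of respiratory complex I, were 10.1% and 8.94% in the PyMT tumour and 5.38% and 5.29% in the Met-1 transplant, so that this gene differed more between libraries than across the limit. Of all 13, mt-Nd6, which also encodes a complex I subunit, and mt-Atp8 each made up at most 0.193% of mitochondrial UMIs on either side in either library.

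Marker UMIs placed most of the Met-1 barcodes in a class. A class was given where a barcode had at least 3 UMIs from at least 2 genes of a marker list, and the second-best class scored at most 50% of the best. By this rule 268 of 316 barcodes above the limit were named, 12 were mixed and 36 had no class. Among the named ones, 11 had a second class scoring over 25% of the first, 155 had no second class, and 35 rested on fewer than 5 marker UMIs. The 36 without a class were the shallowest, with a median of 276 UMIs outside the mitochondrial genes and a mitochondrial share of 61.4%. Of 27 PyMT barcodes, 16 were named and 9 had no class, and those 9 had medians of 40 UMIs outside the mitochondrial genes and 94.0% mitochondrial, so that most of what they held was mitochondrial RNA.

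By this marker rule B-like barcodes were the most numerous class above the limit in the Met-1 transplant, with 84 of 316 (26.6%, interval 21.8 to 31.8%), against 248 of 2135 (11.6%, 10.3 to 13.1%) at or under it. With classes taken from joint clusters, 31.6% of barcodes above the limit were macrophage or monocyte-like and 26.9% B-like. Of the macrophage or monocyte-like ones, 70 lay in a cluster that was 56.5% macrophage or monocyte-like by markers. Above a limit of 20%, T-like barcodes made up 16.4%, macrophage or monocyte-like and fibroblast-like barcodes 14.8% each and B-like barcodes 13.9%. Macrophage or monocyte-like barcodes went the other way, with 51 above (16.1%, 12.3 to 20.7%), against 774 at or under (36.3%, 34.2 to 38.3%). T-like barcodes numbered 56 (17.7%), against 317 (14.8%), and fibroblast-like barcodes 34 (10.8%), against 228 (10.7%). There were also 19 NK-like, 18 mural-like, 5 luminal epithelial or tumour-like and 1 dendritic-like barcodes above the limit. No Met-1 barcode above the limit was adipocyte-like (0 of 316, which allows a share of up to 0.949%), and 3 at or under it were.

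Read by class, 25.3% of all B-like barcodes of the Met-1 transplant were above the limit (20.7 to 30.3%), 16.8% of mural-like (10.3 to 25.3%), 15% of T-like (11.5 to 19.0%), 13% of fibroblast-like (9.16 to 17.7%), 12.8% of luminal-like (4.3 to 27.4%) and 11.3% of NK-like (6.95 to 17.1%) barcodes. The macrophage or monocyte-like share was 6.18% (4.64 to 8.05%), and its interval did not meet those of the B-like, T-like, mural-like or fibroblast-like barcodes. The order against fibroblasts turned with classes taken from joint clusters, where the shares were 10.7% for macrophage or monocyte-like and 6.32% for fibroblast-like barcodes, beside 24.6% for B-like and 16.7% for T-like ones. There each barcode took the majority class of its cluster. A cluster only 56.5% macrophage or monocyte-like by markers gave that class 70 Met-1 barcodes above the limit. Another, 49.5% fibroblast-like by markers and with 20 above, had no majority and counted as mixed. Of 35 neutrophil-like barcodes 0 were above, which allows up to 8.57%. In the PyMT tumour, 7 of 79 luminal-like barcodes were above the limit (8.86%, 3.64 to 17.4%), 4 of 189 macrophage or monocyte-like (2.12%, 0.58 to 5.33%), 4 of 183 neutrophil-like (2.19%, 0.599 to 5.50%) and 1 of 6 basal-like. None of 29 B-like and none of 42 T-like PyMT barcodes was, which allows up to 10.3% and 7.14%. Classes next to each other in the order of either library had overlapping intervals.

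**Figure D2:**
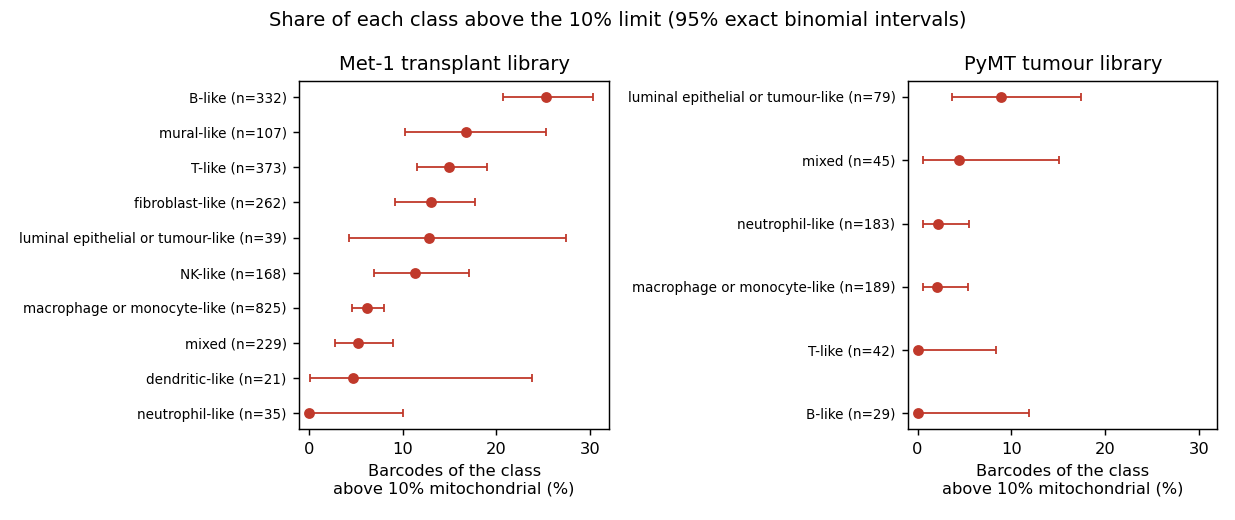
Share of the barcodes of each class that were above 10% mitochondrial (%), in the Met-1 transplant (left) and the PyMT tumour (right), for classes of at least 20 barcodes. Points are shares and bars exact 95% binomial intervals for counting error alone, with the B-like class highest in the Met-1 transplant at 25.3% and the luminal-like class highest in the PyMT tumour at 8.86%.

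Depth and class moved together with the limit, and for depth this was partly set by the rule. Every barcode had at least 500 UMIs, so one with few outside the mitochondrial genes must hold many mitochondrial ones. Of the Met-1 barcodes above the limit, 55 had under 500 UMIs outside the mitochondrial genes. Of Met-1 B-like barcodes with under 1000 UMIs outside the mitochondrial genes, 60 of 67 were above the limit, as were 22 of 45 with 1000 to under 2000, 1 of 182 with 2000 to under 5000 and 1 of 38 with 5000 or more. T-like barcodes showed 23 of 25, 24 of 29, 9 of 79 and 0 of 240 in the same ranges, where the last allows up to 1.25%. Shallow macrophage or monocyte-like barcodes were more often under the limit, with 15 of 43, 17 of 65, 18 of 204 and 1 of 513 above it. Fibroblast-like barcodes above the limit reached further up, with 18 of 29, 3 of 8, 10 of 26 and 3 of 199. Within the shallowest range, 89.6% of B-like (79.7 to 95.7%) and 34.9% of macrophage or monocyte-like barcodes (21.0 to 50.9%) were above the limit, and these intervals did not overlap. Depth inside that range was not matched between the classes.

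The class names rested on their defining markers on both sides of the limit. Among B-like Met-1 barcodes, Ebf1, a B lineage transcription factor, had a UMI in 97.6% above the limit and in 100% at or under it, Ighm, the heavy chain of IgM, in 89.3% and 98.0%, and Cd79a, a chain of the B cell receptor, in 78.6% and 98.8%. Col3a1, a fibrillar collagen, had a UMI in 100% of fibroblast-like barcodes above the limit and 99.1% at or under it. Every other fibroblast marker was found less often above the limit. Dcn had a UMI in 58.8% above and 97.4% at or under it, Pdgfra in 44.1% and 78.9%, and Clec3b in 14.7% and 43.9%. T-like barcodes had Cd3g, a chain of the T cell receptor complex, in 76.8% and 96.5%. Macrophage or monocyte-like barcodes had C1qb, a chain of complement C1q, in 80.4% and 97.3%. These genes chose the classes and are given only as a check on the names.

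UMIs of the macrophage list in B-like and T-like barcodes were fewer per barcode above the limit and made up a larger median share of the RNA. The list gave a median of 3 UMIs in B-like barcodes above the limit and 4 at or under it, which is 3224 CPM above and 1268 CPM at or under. In T-like barcodes the medians were 2 and 4 UMIs, or 1600 and 463 CPM. The defining lists of T cells and neutrophils were at a median of 0 in B-like barcodes on both sides. The part of this RNA in the differences described next was not tested.

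Outside the mitochondrial genes, the Met-1 barcodes above the limit had more of their UMIs in Malat1 and Xist and fewer in transcripts of ribosomal proteins. To keep the mix of classes out of this, each sum above the limit was set against the sum expected from the barcodes at or under the limit of the same class, weighted by the UMIs that each class had above the limit (268 barcodes above, 1859 at or under, 8 classes). Malat1 (chromosome 19, bases 5795690 to 5802672 of GRCm38, minus strand) was at 69857 CPM above the limit, against 24304 CPM expected, a ratio of 2.87 (2.84 to 2.91). Xist (chromosome X, bases 103460366 to 103483254, minus strand) was at 4112 CPM, against 1097 CPM, a ratio of 3.75 (3.58 to 3.93). Both were higher in sums of many barcodes, with Malat1 found in 262 and Xist in 221 of the 268.

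Other nuclear RNAs had ratios above 1 of differing size. Kcnq1ot1, an imprinted antisense RNA, was at 470 CPM above the limit and 139 CPM expected (ratio 3.37, 2.93 to 3.86), with 35 of its 208 UMIs in 1 barcode. No source used here says whether counts were split by strand. Neat1, the scaffold of paraspeckles (chromosome 19, bases 5824708 to 5845478), was at 1152 CPM and 503 CPM (2.29, 2.10 to 2.5). Tug1 gave 92.6 CPM against 48.0 CPM (1.93, 1.38 to 2.62). Meg3, an imprinted long non-coding RNA, had a smaller ratio, at 219 CPM against 166 CPM (1.32, 1.07 to 1.61). All rows annotated as long non-coding RNA other than Malat1 summed to 41117 CPM above the limit and 15244 CPM expected, a ratio of 2.70. These rows are not limited to nuclear RNAs. The nuclear-retained list, mostly Malat1, summed to 75972 CPM against 26294 CPM expected. Most of the sum of 41117 CPM thus came from rows outside that list, whose place in the cell was not examined.

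Ribosomal protein transcripts, which are short, abundant and engaged with cytoplasmic ribosomes, summed to 85289 CPM above the limit, against 233729 CPM expected, a ratio of 0.365. EGFP, the transcript of the reporter the cells were sorted on, was at 1220 CPM against 3099 CPM, a ratio of 0.394 (0.361 to 0.428). It had a UMI in 64.9% of Met-1 barcodes above the limit and 96.3% of those at or under it. After each barcode was thinned to 500 UMIs (261 above and 2133 at or under kept, 55 and 2 left out as too shallow), the shares were 44.4% and 71.2%. Luminal-like barcodes at or under the limit, a class that in a transplant includes cells of the implanted line, had EGFP in 20.6% at this thinned depth (52.9% unthinned, at a median of 2288 UMIs). The share above the limit was thus higher than in that class and lower than in the rest of the library.

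In UMIs per barcode, the median of Malat1 was nearer to its level at or under the limit than that of ribosomal protein transcripts in the 5 classes given here, and nearest in B-like and T-like barcodes. B-like barcodes had a median of 82 Malat1 UMIs above the limit and 95.5 at or under it, and 47.5 against 1114 ribosomal protein UMIs, so that the medians above the limit were 85.9% and 4.27% of those at or under it. T-like barcodes had 92.5 against 111 Malat1 UMIs (83.3%) and 80.5 against 2731 ribosomal protein UMIs (2.95%). NK-like barcodes, the other lymphocyte class, had 73 against 123 Malat1 UMIs (59.3%) and 103 against 2764 ribosomal protein UMIs (3.73%). In fibroblast-like barcodes the median of Malat1 was 68 against 481 UMIs (14.1%), and that of ribosomal proteins 76 against 2197 (3.46%). Macrophage or monocyte-like barcodes had 67 against 216 Malat1 UMIs (31.1%) and 93 against 908 ribosomal protein UMIs (10.2%). Mitochondrial UMIs, which the rule used, were at 156 against 150 in B-like, 250 against 231 in T-like, 456 against 386 in fibroblast-like and 351 against 99.5 in macrophage or monocyte-like barcodes.

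**Figure D3:**
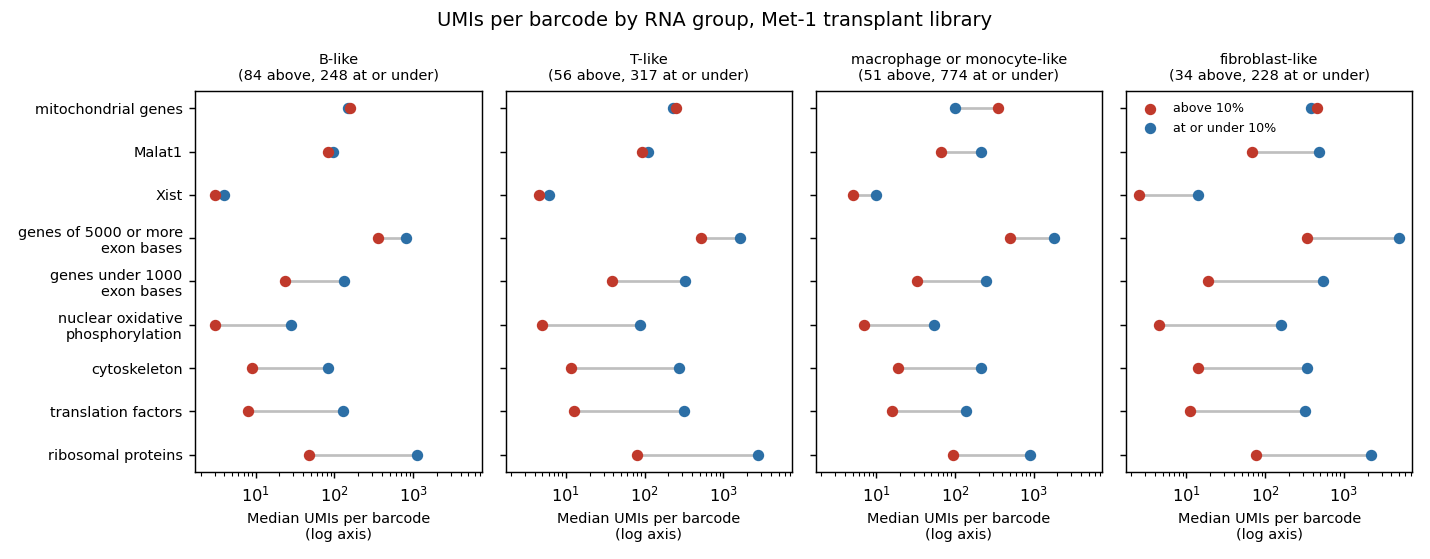
Median UMIs per barcode (log axis) of 9 RNA groups in the 4 largest named classes of the Met-1 transplant, above 10% mitochondrial (red) and at or under it (blue), joined by a grey line. Mitochondrial genes and Malat1 are nearly level in B-like and T-like barcodes, while ribosomal proteins are at 47.5 against 1114 UMIs and at 80.5 against 2731 UMIs.

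The ratio of Malat1 CPM above the limit to that at or under it was 5.0 (4.86 to 5.15) in T-like, 4.09 (4.01 to 4.18) in fibroblast-like, 3.32 (3.23 to 3.40) in B-like, 2.93 (2.78 to 3.08) in NK-like, 1.64 (1.59 to 1.69) in macrophage or monocyte-like and 1.52 (1.45 to 1.60) in mural-like barcodes. Xist followed with 5.86, 4.14, 4.05, 5.18, 3.1 and 2.96. Luminal-like barcodes, of which 5 were above the limit, had a Malat1 ratio of 1.40 (1.33 to 1.48) and a ribosomal protein ratio of 0.909 (0.891 to 0.928). With cells thinned to 500 UMIs, a Met-1 barcode above the limit had a median of 35 Malat1 and 32 ribosomal protein UMIs, against 11 and 91 at or under it, and the median of detected genes was 365 against 339.

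High Malat1 was also found in shallow barcodes at or under the limit. When both sides were held to at most 2000 UMIs outside the mitochondrial genes, the class-weighted ratio was 1.30 for Malat1 and 1.68 for Xist, as an alternative chosen after the data were seen that leaves only the B-like and the macrophage or monocyte-like classes with enough barcodes on the lower side. Shallow B-like barcodes kept a difference, with 96046 CPM of Malat1 in 82 above the limit, against 59458 CPM in 30 at or under it (ratio 1.62, 1.54 to 1.69), and 62540 against 191431 CPM of ribosomal proteins (0.327, 0.315 to 0.339). Shallow fibroblast-like barcodes had a Malat1 ratio of 1.74 (1.59 to 1.91; 21 above, 16 at or under). In shallow T-like barcodes Malat1 was at 73918 CPM in 47 above and 74161 CPM in 7 at or under the limit (0.997, 0.916 to 1.09). Their summed ribosomal proteins were lower, at 76534 against 138317 CPM (0.553, 0.518 to 0.591). The medians over these barcodes did not show this, at 74550 CPM above and 69246 CPM at or under the limit. Shallow mural-like barcodes had a ribosomal protein ratio of 0.471 (0.429 to 0.516; 14 above, 6 at or under). In shallow macrophage or monocyte-like barcodes it was lower above the limit, at 58042 CPM in 32, against 74690 CPM in 76 with a median mitochondrial share of 1.83% (0.777, 0.739 to 0.817), and ribosomal proteins were at 74087 against 68815 CPM (1.08, 1.03 to 1.13). Shallow macrophage or monocyte-like barcodes thus carried this composition on both sides of the limit.

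Along the mitochondrial share the change was steep in B-like barcodes and more gradual in others. B-like barcodes had a median of 25702 CPM of Malat1 between 2% and 5%, 28483 CPM between 5% and 10%, 94946 CPM between 10% and 15%, 99885 CPM between 15% and 20% and 82667 CPM between 20% and 30%. Their ribosomal protein median was 306110 CPM between 5% and 10% and 54455 CPM between 10% and 15%. Fibroblast-like barcodes were already at 79521 CPM of Malat1 between 5% and 10%, and at 102128 CPM between 10% and 15%. T-like barcodes had 15387, 35223 and 71786 CPM of Malat1 in the bands 2% to 5%, 5% to 10% and 10% to 15%. Macrophage or monocyte-like barcodes had the smallest range, from 19804 CPM between 2% and 5% to 58828 CPM between 15% and 20%.

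**Figure D4:**
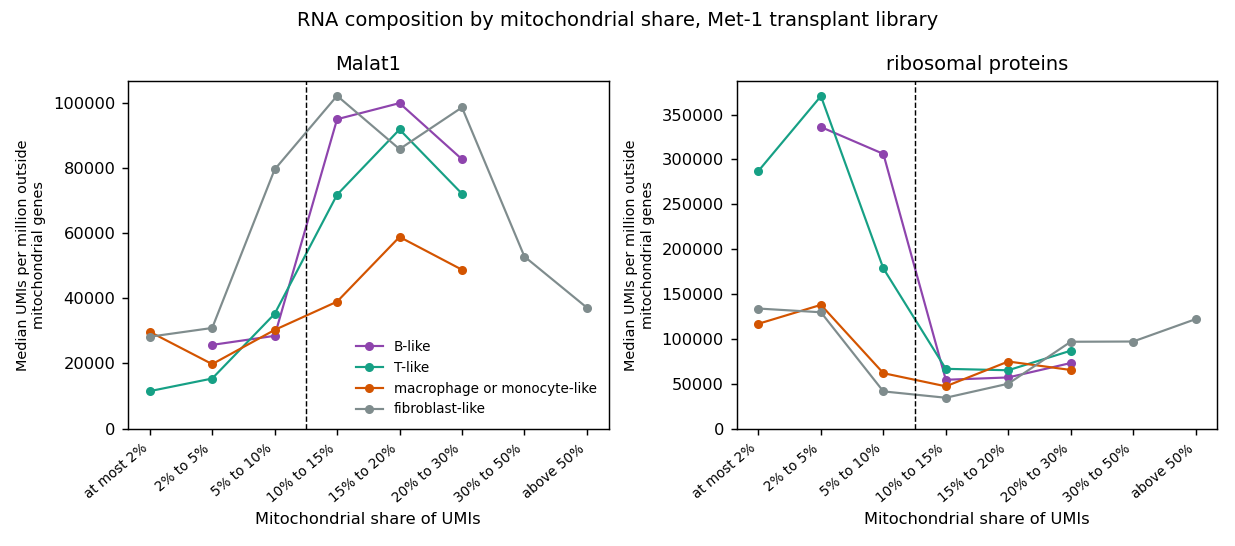
Median CPM of Malat1 (left) and of ribosomal proteins (right) by band of the mitochondrial share, for 4 classes of the Met-1 transplant and bands of at least 3 barcodes. The dashed line is the 10% limit, between 28483 and 94946 CPM of Malat1 in B-like barcodes.

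The Met-1 barcodes with the highest mitochondrial shares had less Malat1 among their other RNA. Malat1 summed to 71097 CPM between 10% and 15%, 78272 CPM between 15% and 20% and 70287 CPM between 20% and 30%, and was at 30308 CPM between 30% and 50% and 27526 CPM above 50%. Ribosomal proteins were at 86730, 65589 and 71731 CPM in the lower 3 of these bands and at 135210 and 173559 CPM in the upper pair. In the band from 30% to 50%, 2 luminal-like barcodes held 17110 of the 31906 UMIs, and without them Malat1 was at 45147 CPM and ribosomal proteins at 87929 CPM, as an alternative chosen after the data were seen. Above 50%, without the 1 luminal-like barcode, the values were 27693 and 172386 CPM. Within that top band, 5 of 35 Met-1 barcodes had no Malat1 UMI, 9 had Xist, and 20 had no class. In the PyMT tumour 12 of the 15 barcodes above 50% had no Malat1 UMI and 0 had Xist, which allows up to 20%, at a median of 84 UMIs outside the mitochondrial genes. All of these PyMT and Met-1 barcodes had at least 1 ribosomal protein UMI.

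Across all genes of the Met-1 transplant, 1877 genes had at least 50 UMIs observed or expected above the limit. Of these 385 were at least 2-fold higher above the limit (20.5%) and 265 at least 2-fold lower (14.1%), on the scale of CPM plus 10, so that 34.6% were apart in either direction. A gene could enter through the side on which it was high. The median log2 ratio over all 1877 was 0.40, and over the 990 genes with 50 UMIs on both sides it was 0.06, with 124 higher and 173 lower. With the barcode richest in a gene left out on each side, the counts were 289 higher and 388 lower. That step tends to lower ratios by construction, since the side above the limit has fewer barcodes and the UMI totals were kept. With both sides held to 2000 UMIs, 19 were higher and 64 lower of 326. The balance of higher and lower genes therefore rested on these choices.

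Over all classes together, genes at least 2-fold higher were long, and genes at least 2-fold lower were short. Of the 385 higher genes, 124 had 50 UMIs on both sides, and the rest entered through the side on which they were high. The median merged exon length, from GENCODE vM21 on GRCm38, was 9509 bases for the higher genes (quartiles 5620 and 14706), 1851 bases for the lower genes (1276 and 2893) and 4578 bases for the rest. With ribosomal proteins left out, 40.5% of genes under 1000 bases were lower and 7.59% higher, whereas 0% of the 522 genes of 8000 bases or more were lower and 44.1% higher. Among genes with 50 UMIs on both sides, the median log2 ratio went from -0.60 under 1000 bases through -0.46, -0.21 and 0.20 to 0.79 at 8000 bases or more. Within classes, few genes were this short. Their median under 1000 bases was 0.21 in B-like, 0.25 in T-like, -0.11 in macrophage or monocyte-like and -1.37 in fibroblast-like barcodes. At 8000 bases or more it was 1.15, 1.74, 0.95 and 0.63. Genes of at least 5000 exon bases made up 416060 CPM in B-like barcodes above the limit, against 245058 CPM at or under it (ratio 1.70), and 287636 against 237059 CPM in macrophage or monocyte-like barcodes (1.21). Held to 2000 UMIs, these ratios were 1.21 (1.19 to 1.24) and 1.09 (1.07 to 1.11). Long non-coding RNAs were 17 of the 385 higher genes (4.42%) and 0 of the 265 lower ones, beside 22 of all 1877 tested (1.17%).

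**Figure D5:**
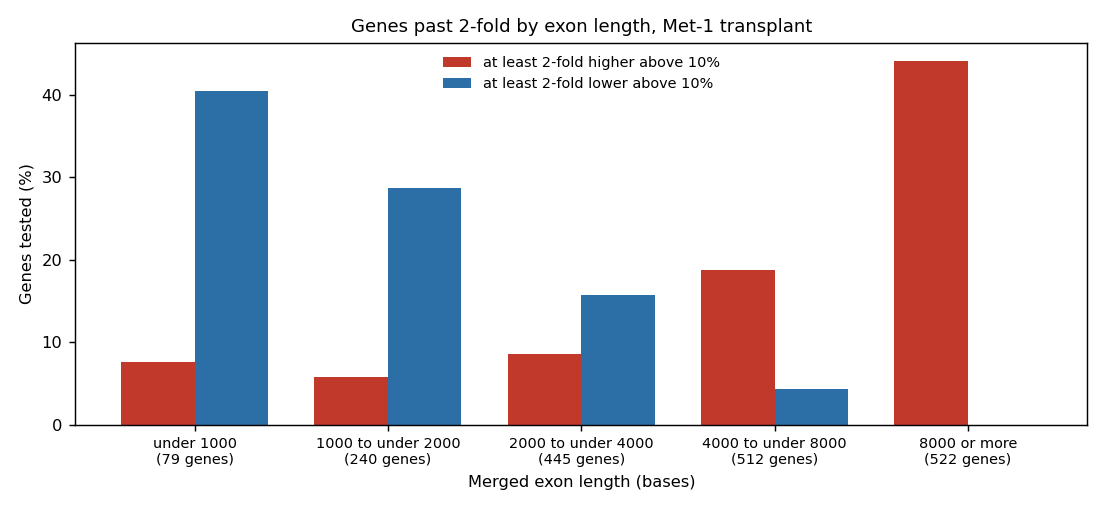
Percent of tested genes at least 2-fold higher (red) or lower (blue) in Met-1 barcodes above 10% mitochondrial than expected from barcodes of the same classes at or under it, by merged exon length in bases, ribosomal proteins left out. The higher share is 7.59% in the shortest range and 44.1% in the longest, and the lower share 40.5% and 0%.

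The genes with the highest ratios in the Met-1 transplant had differing roles, and several rested on few barcodes. Ifng, the cytokine interferon gamma, was at 158 CPM above the limit and 14.9 CPM expected (log2 ratio 2.76), from 70 UMIs in 10 barcodes. Mki67, a proliferation marker that coats mitotic chromosomes, was at 253 CPM against 38.3 CPM (2.44), with 35 of its 112 UMIs in 1 barcode, and Cenpf, a kinetochore protein, at 113 against 15.1 CPM (2.29). Emb, a membrane glycoprotein, was at 445 against 90.0 CPM (2.19) and was found in 70 barcodes. Itgal, the alpha chain of the integrin LFA-1, was at 246 against 54.5 CPM (1.99), and Txk, a kinase of T cells, at 429 against 104 CPM (1.95). Ikzf2, a lymphocyte transcription factor, had a log2 ratio of 2.07, Dgat1, which makes triglycerides, 2.05, and Sned1, an extracellular matrix protein, 2.16. Sorbs2 had 39 of its 56 UMIs in 1 barcode.

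The lowest genes split by what they rested on. Saa1, an acute phase protein, had 0 UMIs above the limit against 101 expected, at least 33.6-fold lower with a floor of 3 counts over the group. S100a8, a neutrophil protein, Chil1, a chitinase-like protein, and Aqp5, a water channel, had log2 ratios of -2.87, -2.60 and -1.87. These 4 rested on the expectation for 5 luminal-like barcodes, which held 13% of the UMIs above the limit: without that class their log2 ratios were -0.13, 0.97, -0.10 and 0.40. The others did not. Tmsb10, an actin-binding peptide, was at 915 CPM above the limit and 3664 CPM expected (log2 ratio -1.99, and -2.10 without luminal-like barcodes). Atp5e, the epsilon subunit of ATP synthase, was at 273 against 934 CPM (-1.74 and -2.06). Ifitm3, an antiviral membrane protein, was at 239 against 1055 CPM (-2.09 and -1.66), Timp1, a metalloproteinase inhibitor, at 31.6 against 136 CPM (-1.81 and -1.84), and Fabp5, which binds fatty acids, at 40.7 against 159 CPM (-1.73 and -1.55). For Ifitm3 the sign turned when both sides were held to 2000 UMIs, to a log2 ratio of 0.11.

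Ribosomal proteins, translation factors and the cytoskeleton had more low genes than the 14.1% over all genes, and median log2 ratios of -1.45, -1.13 and -0.98 beside 0.40 over all genes. Of 77 ribosomal protein genes tested, 71 were at least 2-fold lower and 0 higher. Among 20 genes of the translation factor list 12 were lower and 0 higher, with a summed ratio of 0.442. Its lowest members, Tpt1 (2078 against 6076 CPM) and Fau (2049 against 5774 CPM), are not themselves translation factors. Fau encodes a ribosomal protein and was not counted among the 77. The highest was Eif4a2, at 233 against 159 CPM. Among 18 cytoskeletal genes 9 were lower and 0 higher (0.437), with Tuba1a, a tubulin, at 63.3 against 229 CPM, and Lcp1, an actin bundler of leukocytes, at 554 against 340 CPM. Counts nearer to that share came from glycolysis and hypoxia, where 2 of 9 were lower and 0 higher, and from mitophagy, where 1 of 7 was lower and 0 higher. Their summed ratios were 0.641 and 0.558, and their median log2 ratios -0.67 and -0.68. Gapdh, a glycolytic enzyme, was at 219 against 727 CPM, and Gabarap, an autophagosome protein, at 188 against 468 CPM.

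Nuclear genes for mitochondrial proteins, which the rule did not use, were lower more often than the 14.1% over all genes. Of 26 tested genes of nuclear oxidative phosphorylation, 12 were lower and 0 higher, with a median log2 ratio of -0.97 beside 0.40 over all genes. Their sum was 6059 CPM above the limit and 11679 CPM expected (ratio 0.519). Uqcrh, a subunit of complex III, was at 197 against 625 CPM, and Ndufa4, a subunit of cytochrome c oxidase, at 391 against 401 CPM. For the mitochondrial ribosome and protein import, 4 of 13 were lower and 0 higher (0.668), with Tomm7, of the outer membrane translocase, at 136 against 380 CPM, and Hspd1, the mitochondrial chaperonin, at 334 against 184 CPM. Only 1 gene of the mitochondrial and integrated stress response passed the minimum, Atf4, its transcription factor, at 208 against 179 CPM, and the sum of the list had a ratio of 0.902 (0.785 to 1.03).

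Lists of the endoplasmic reticulum, lysosome and cell death had summed ratios above 1, but their genes lay near the background of all tested genes. Their median log2 ratios were 0.55, 0.42 and 0.42, beside 0.40 over all genes, and their shares of higher genes were at or under the 20.5% over all genes. The chaperone list of the endoplasmic reticulum had a summed ratio of 1.40 (1.35 to 1.45), with 0 of 14 genes higher and 1 lower, which was Sec61b, of the translocon, at a ratio of 0.323. Hspa5, the main chaperone of that compartment, had a ratio of 1.90 (1.75 to 2.06). Lysosomal genes summed to 1.29 (1.25 to 1.33), with 1 of 17 higher, and Psap, a sphingolipid activator, was at a ratio of 1.77. The apoptosis list had a ratio of 1.35, with 1 of 6 higher, Bcl2, which inhibits apoptosis, at 578 against 170 CPM. Bcl2l11, which promotes apoptosis, was at 190 against 93.0 CPM, and Bax, a pore-former of the mitochondrial outer membrane, at 108 against 169 CPM.

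The remaining lists differed in direction and in what they rested on. The list of S, G2 and M phases had 3 of 7 genes higher and a ratio of 1.33, and this ratio was 0.861 with both sides held to 2000 UMIs. Of 23 immediate early and heat shock genes 1 was higher and 2 lower (0.774), both under the shares over all genes. The higher one, Hspb1, a small heat shock protein, had 204 of its 218 UMIs in 1 barcode, and its log2 ratio was 1.12 with and -1.13 without luminal-like barcodes. Of 6 interferon response genes, 1 was higher and 2 lower (0.801). Histone genes had a summed ratio of 0.627 (0.596 to 0.66) and a median log2 ratio of -0.58, beside 0.40 over all genes. Of 4 tested, 1 was at least 2-fold lower, H3f3a, which makes a replication-independent histone, at 680 against 1399 CPM. Neither small nucleolar RNA host genes (summed ratio 0.867) nor genes of mitochondrial transcription (1.28) had a gene past the minimum.

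Each of the 4 larger Met-1 classes was also read alone. Of 244 genes tested in B-like barcodes 63 were higher (25.8%) and 106 lower (43.4%), which is 69.3% in either direction. In T-like barcodes 93 of 262 were higher (35.5%) and 122 lower (46.6%), and in fibroblast-like ones 25 of 228 (11%) and 135 (59.2%), together 82.1% and 70.2%. Macrophage or monocyte-like barcodes differed least, with 23 of 277 higher (8.30%) and 49 lower (17.7%), together 26.0%. These shares count genes over different minimums of CPM, since the classes held different sums of UMIs. They are also partly set by the minimum of UMIs, which a gene could pass on its high side alone. Both sides passed it for 126 genes in B-like, 116 in T-like, 76 in fibroblast-like and 175 in macrophage or monocyte-like barcodes. Their median log2 ratios were -1.17, -1.57, -0.38 and -0.40, against -0.04, -0.68, -1.40 and -0.49 over all genes tested. Genes named by class below could have entered in the same way. Of 102 genes tested in all 4, Xist was the one that was at least 2-fold higher in each, and 12 were at least 2-fold lower in each: Atp5e, Actb, Tpt1, Ubb, Eif1, EGFP and 6 ribosomal protein genes.

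B-like barcodes above the limit were highest, after Xist and Malat1, in Ogt, which attaches sugars to nuclear and cytoplasmic proteins (log2 ratio 1.95, 52 UMIs in 33 barcodes), in Nktr, a cyclophilin-type protein (1.82), and in Adgre5, an adhesion receptor (1.76). They were lowest in Uqcrh (-2.31) and Pfdn5, a subunit of the prefoldin chaperone (-2.31). T-like barcodes were highest in Ccr7, a chemokine receptor of lymph node homing (2.47, 70 UMIs in 24 barcodes), Emb (2.29) and Tra2a, a splicing factor (2.27), and lowest in Uqcrh (-2.89), Atp5h (-2.63), both of the respiratory chain and ATP synthase, and Atp5e (-2.43). Fibroblast-like barcodes were highest in Sned1 (2.59, with 27 of 68 UMIs in 1 barcode), Lars2, a mitochondrial leucyl-tRNA synthetase (2.26), Fbn2, an extracellular microfibril protein (2.01), and Pdgfrb, a growth factor receptor (1.97). They were lowest in Ifitm2 (-2.99) and the ubiquitin gene Ubb (-2.78).

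Among the low genes of macrophage or monocyte-like barcodes were immediate early and heat shock genes, of which 8 of 13 tested were at least 2-fold lower, beside 17.7% of all genes in this class. Ribosomal protein genes gave 7 of 69. Atf3, a stress-induced transcription factor, was at the lowest log2 ratio of -3.76, with 12 UMIs above the limit against 174 expected. Jun followed at -1.97 (31 against 124 UMIs), and Zfp36, which destabilises cytokine messenger RNA, at -1.75 (29 against 99.5 UMIs). The highest after Xist were Pdia6 (1.51), which forms disulfide bonds in the endoplasmic reticulum, Tmed9 (1.45), of transport from it, and Ptprc (1.34), the leukocyte antigen CD45, the last with 167 UMIs in 39 barcodes. All 5 tested chaperones of the endoplasmic reticulum were at least 2-fold higher in this class, beside 8.30% of all genes, and all 3 tested in T-like barcodes, beside 35.5%. A gene could pass the minimum through the side on which it was high, so these counts are partly set by it. At 20 UMIs observed or expected the list had 12 and 10 members in these classes. In fibroblast-like barcodes 0 of 3 tested chaperones were higher and 1 was lower. The summed ratio over all members of the list was 0.557 (0.491 to 0.631) there, against 1.96 (1.84 to 2.09) in macrophage or monocyte-like and 1.94 (1.77 to 2.12) in T-like barcodes.

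The PyMT tumour offered less to describe, since 15 of its 27 barcodes above the limit had a class with enough barcodes at or under it, and 1 luminal-like barcode held 11334 of their 26541 UMIs. Malat1 was at 24227 CPM above the limit, against 18371 CPM expected (ratio 1.32, 1.22 to 1.42), Xist at 1130 against 1013 CPM (1.12, 0.753 to 1.59) and EGFP at 2977 against 4145 CPM (0.718, 0.569 to 0.895). Ribosomal proteins were at 186542 against 190317 CPM (0.980). With the deepest barcode left out the ratios were 1.19 for Malat1, 2.48 for Xist and 0.899 for EGFP. The median PyMT barcode above the limit had 0 Malat1 UMIs, against 65.5 at or under it, and 49 ribosomal protein UMIs, against 644. No PyMT barcode above the limit was B-like, T-like or NK-like, so the Met-1 lymphocytes had no counterpart here, and the difference between the libraries was not tested.

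Of 100 genes tested in the PyMT tumour, 10 were at least 2-fold higher (10%) and 4 lower (4%), together 14%. The highest were Wfdc2, an epithelial secreted protein, with 64 of its 65 UMIs in 1 barcode, Atp5h (53 of 61 in 1), Apoe, a lipid carrier (219 of 238 in 1), Dbi (69 of 88 in 1), Slpi, a protease inhibitor (37 of 71 in 1), and Cd74, the invariant chain of MHC class II (205 of 216 in 1). The lowest outside the ribosomal proteins was Csn3, a milk casein, at a log2 ratio of -1.38, from 99 UMIs above the limit against 258 expected. With the richest barcode of each gene left out, 0 genes were higher and 48 lower of 85. That step took 1 of 15 barcodes from the side above and 1 of 436 from the other, with UMI totals kept. Ratios therefore tend to fall by construction, and the step gives no direction. Without the deepest barcode 5 were higher and 0 lower of 41.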

How the data were processed

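The authors deposited 1 table of whole-number UMI counts per library, which the submitters' processing notes credit to Cell Ranger 3.1.0 and build mm10 (the version also stands in the file headers). For the annotation release and any cell filter, a statement was not given in the sources used here. Each library was 1 sample: 20786371 UMIs in 2451 barcodes of the Met-1 transplant and 4359066 UMIs in 619 of the PyMT tumour, with 31054 genes and 0 barcode sequences in both. All barcodes had at least 500 UMIs, the lowest 505 and 517. PCR duplicates are collapsed in UMIs, and intervals (Clopper-Pearson for shares, Poisson for sums, conditional binomial for ratios within a class) cover counting error only. For class-weighted ratios, and for the chaperone list by class, the Poisson interval of the observed sum was divided by the expected sum. These intervals leave out the counting error of the expected sum.

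Members, marker lists and gene lists were chosen with earlier results of these data known. Barcodes were classed from 16 marker lists. A list's CPM outside mitochondrial genes was divided by the mean over the 2% of barcodes at or under the limit with the highest value, or by 2000 CPM if that was more. Doublets were called with Scrublet in scanpy 1.11.5 and not removed. Sums above the limit were set against sums expected from barcodes at or under it in classes of at least 20 barcodes, with 10 CPM added before ratios and genes kept at 50 UMIs observed or expected. No count model or test was used. Named genes were the 10 highest and 10 lowest (6 and 6 in a class and in the PyMT tumour), leaving out antisense, pseudogene, Rik and Gm-numbered rows and genes of haemoglobin, ribosomal proteins and mitochondria, plus the 2 highest and 2 lowest of each gene list, the 6 nuclear RNAs with the most UMIs and EGFP. A few of these are given by list only. The ratio step was tested on simulated data. Gene positions and lengths came from GENCODE vM21, which matched 30934 of 31054 rows. Alternatives changed the limit, the UMI minimum, the denominator, the pseudocount, the gene minimum, the class assignment, the centring and the barcodes kept, and both libraries were processed alike with Python 3.11.15.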

Additional observations from a re-analysis of the deposited data

Results flagged for a closer look

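Nuclear genes of oxidative phosphorylation went opposite ways in the libraries, as a difference that was not tested. Their sum above the limit was 0.519 times the expected sum in the Met-1 transplant and 1.61 times in the PyMT tumour. Held to at most 2000 UMIs outside the mitochondrial genes, the Met-1 ratios of single classes lay on both sides of 1. The mitochondrial ribosome and import list gave 0.668 in the Met-1 transplant and 1.24 in the PyMT tumour, likewise not tested. In the PyMT tumour 1 luminal-like barcode held 11334 of the 26541 UMIs above the limit. Without luminal-like barcodes the PyMT ratios were 0.969 and 0.820, and without the deepest barcode 1.34 and 1.24.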

How the results depend on the processing

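No paired analysis was possible because each group held 1 library. With at least 500 UMIs outside the mitochondrial genes, 10.9% of Met-1 and 2.31% of PyMT barcodes were above the limit, at medians of 1277 and 1492 other UMIs; with at least 1000 UMIs the Met-1 share was 9.19%. Without barcodes above 50%, the PyMT median was 1778. A limit of 20% gave a Met-1 median of 544 UMIs; 13.9% of barcodes above it were B-like and 14.8% fibroblast-like, and 6.42% of B-like, 5.93% of T-like, 2.27% of macrophage or monocyte-like and 7.32% of fibroblast-like barcodes were above it. With classes taken from joint clusters, 31.6% of Met-1 barcodes above the limit were macrophage or monocyte-like and 1.90% fibroblast-like, and 10.7% and 6.32% of these classes were above it, so the class shares depended on how classes were assigned. Whole clusters took their majority class in this setting, and a cluster 49.5% fibroblast-like by markers counted as mixed.

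The Met-1 ratio of Malat1 was 2.23 at a limit of 20%, 2.42 over all UMIs, 2.64 when thinned, 1.30 at most 2000 UMIs and 2.99 without the deepest barcode; that of Xist was 4.34, 3.17, 1.68 and 3.95 in the same settings other than thinning. The PyMT ratio of Malat1 was 2.04 at 20%, 0.956 over all UMIs, 1.07 thinned, 1.11 at most 2000 UMIs and 1.19 without the deepest barcode. PyMT Xist turned to 0.790 over all UMIs and to 0 at most 2000 UMIs, where no UMI was counted, and PyMT EGFP to 2.01 at 20% and 1.07 at most 2000 UMIs. Met-1 genes higher and lower were 43 and 98 at 20%, 124 and 173 with 50 UMIs on both sides, and 19 and 64 at most 2000 UMIs. Higher genes were 165 with 50 CPM added and 755 from 20 UMIs. The share of higher among called genes was 59.2%, against 30.5% at 20%, 48.2% with 50 CPM added, 41.8% with 50 UMIs on both sides, 42.7% with the richest barcode of a gene left out and 22.9% at most 2000 UMIs. PyMT genes higher and lower were 2 and 0 at 20%, 32 and 19 from 20 UMIs, 4 and 1 with 50 UMIs on both sides, 0 and 48 without the richest barcode of a gene, 4 and 0 at most 2000 UMIs, 5 and 0 without the deepest barcode and 4 and 0 without luminal-like barcodes; with joint clusters 7 were lower.

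Other ratios that turned direction in Met-1 were Ifitm3 (log2 0.11) and the S, G2 and M list (0.861), both at most 2000 UMIs. In the PyMT tumour, log2 ratios of Cd74 turned to -0.46 at 20%, -0.38 with joint clusters and -2.90 without the richest barcode, and of Apoe to -0.01, -0.33 and -1.91; without the richest barcode Dbi was at -0.66 and Atp5h at -0.75. PyMT list ratios without the richest barcode were 0.728 for nuclear RNA, 0.702 for oxidative phosphorylation, 0.612 for the mitochondrial ribosome and 0.619 for S, G2 and M. Leaving out the richest barcode tends to lower ratios by construction, so turns in that setting, for genes or lists, give no direction. Without luminal-like barcodes nuclear RNA was at 0.928, oxidative phosphorylation 0.969, the mitochondrial ribosome 0.820, translation factors 1.08 and the cytoskeleton 1.03. At most 2000 UMIs gave 0.646 for oxidative phosphorylation, 1.11 for immediate early genes and 1.44 for the cytoskeleton, and a limit of 20% gave 1.0 and 1.06 for the last pair. The cause was not tested. No other value was counted as turned: 515 stayed and 130 moved among single genes and lists. Among the summary values 83 stayed and 53 moved, which are given above. Apart from Malat1, Xist and EGFP, a turn was counted only for genes at least 2-fold apart and lists whose interval did not span 1. Other genes and lists could change direction and still be counted as stayed or moved. Depth is a limit, since the median barcode above the limit held 1002 and 522 other UMIs, and 1 library a group leaves spread between animals unknown.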

Other observations

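Joint clustering of all barcodes on rows other than the mitochondrial ones gathered many of the barcodes above the limit in few clusters. A cluster led by Aif1, Fcrls and Ctsd, with a median of 1834 UMIs outside the mitochondrial genes, held 70 Met-1 and 17 PyMT barcodes above the limit among its 276 (31.5%); 56.5% of it was macrophage or monocyte-like by markers. A cluster led by Igkc and Cd79a, of which 93.4% was B-like, held 85 Met-1 barcodes above the limit (22.5% of 377). The cluster led by the mitosis genes Ube2c and Prc1 held 0 of 55, and one with B cell and macrophage RNA, mostly of the mixed class, held 1 of 91. Clusters were built from the same barcodes, so these numbers are a description.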
